A study of Mus musculus with 4 samples.

Results

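The genes described here are the G1 cyclins and the inhibitors of cyclin-dependent kinases (CDKs) that act on them: the D-type cyclins Ccnd1, Ccnd2 and Ccnd3, the E-type cyclins Ccne1 and Ccne2, the CIP/KIP inhibitors Cdkn1a (p21) and Cdkn1b (p27), and the INK4 inhibitors Cdkn2a and Cdkn2b. They were chosen by name as 17 probe sets for 9 genes, out of 45101 probe sets in the series, and all 17 were found in the table. The arrays compared cultured fibroblasts of the C57BL/6 mouse strain of wild type genotype with fibroblasts lacking SIN1 (SIN1 KO), the protein product of Mapkap1 and a component of mTOR complex 2. There were 2 arrays per genotype, and all cells were grown in DMEM with no treatment named beyond the genotype. The labels call the cells epithelial fibroblasts and also MEFs, and note an altered metabolism for SIN1 KO. Passage, immortalisation and the number of independent lines are not given by the labels. Each p-value thus rests only on spread between these 4 arrays, which can be technical. That spread is in part pooled over all probe sets.

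D-type cyclins bind CDK4 and CDK6 in response to growth factors and start the phosphorylation of the retinoblastoma protein, which frees E2F factors. E2F factors induce the E-type cyclins, which bind CDK2 and carry the cell into S phase. INK4 proteins block CDK4 and CDK6, while CIP/KIP proteins bind assembled cyclin-CDK complexes. mTOR complex 2 phosphorylates AKT, and AKT acts on this system in several ways: it restrains FoxO factors, which can activate Cdkn1b and repress D-type cyclin genes, and it phosphorylates p21, p27 and GSK3, a kinase that marks cyclin D1 for degradation. Arrays read only the transcripts and not the steps on the proteins.

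All values are log2 units of normalized hybridisation signal. A background level was set on each array as the highest of its 27 control probe sets for Bacillus subtilis genes, which lay between 3.75 and 4.27. This assumes that no transcripts of these genes were added to the RNA, which was not tested. On all 4 arrays, 14 of the 17 lay above the background level, against 46.0% of all probe sets. The array medians lay between 4.23 and 4.32. Wild type 2 and SIN1 KO 2 were the least alike of the 4 arrays (Pearson r = 0.904 over 45037 probe sets that are not independent of each other), while wild type 1 and SIN1 KO 1 were the most alike (r = 0.971). Results that rest on 1 of these arrays are therefore given with and without it. Probe sets of Mapkap1 and of cell type markers were not analysed here, so neither the genotype nor the cell type was checked on these arrays.

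SIN1 KO was compared with wild type to find which of these genes differed in the absence of SIN1. The INK4 inhibitor Cdkn2b was the clearest difference: it lay below background on both wild type arrays and above it on both SIN1 KO arrays. Cdkn2a, its neighbour on the chromosome, lay in the same order but with a wide gap between the SIN1 KO arrays. Without overlap between the genotypes, Ccnd3 was also higher in SIN1 KO, by 1.26 log2 units. Ccne2 and Cdkn1b were lower without overlap of the measured values, by -1.49 for Ccne2 and by -0.61 and -0.061 for the Cdkn1b probe sets. For Ccne2 the genotypes overlapped relative to the background of each array. Ccnd2, Ccne1 and Cdkn1a varied more between arrays of 1 genotype than between genotypes. Ccnd1 differed by 0.10 to 0.23, with 95% intervals that reach both sides of 0.

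None of the 17 passed limma's test with Benjamini-Hochberg adjustment over all 45037 probe sets at 0.05 (adjusted p from 0.574 to 0.997). Over the whole array 0% of probe sets passed in either direction. Cdkn2b was 1 of 17 with an unadjusted p under 0.05, against 5.57% of all probe sets, and 5 of the 17 differed by at least 1 log2 unit, against 9.83%. Without overlap between the genotypes, 3 of the 17 were higher in SIN1 KO and 3 were lower, against 20.4% and 14.9% of all probe sets, shares close to the background. The difference was above 0 for 13 of the 17, against 53.9% of all probe sets, and its median was 0.23, against 0.037 over all, but 8 of the 17 belong to Ccnd1 and Ccnd2. Without wild type 2 the median of the 17 was -0.13 with 6 above 0, and without SIN1 KO 2 it was -0.067 with 6 above 0. It was 0.63 with 12 above 0 without wild type 1, and 0.55 with 14 above 0 without SIN1 KO 1.

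**Figure D1:**
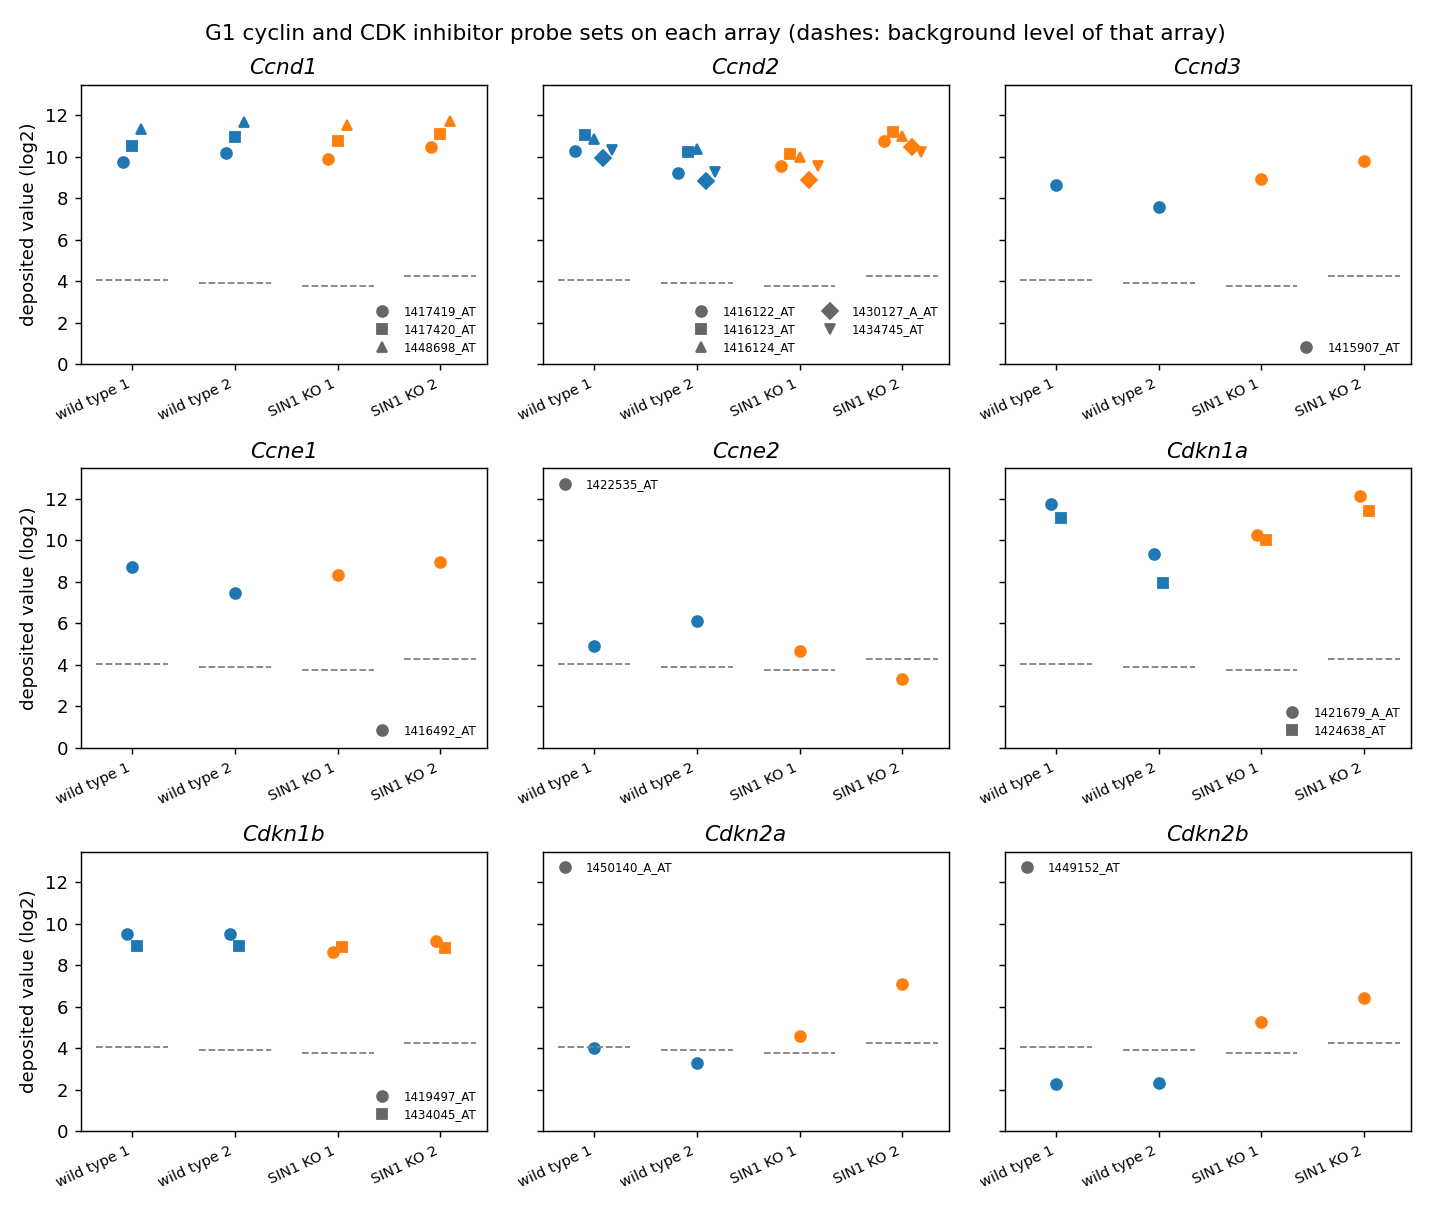
Deposited log2 value (vertical axis) of each of the 17 probe sets on each of the 4 arrays, in a panel per gene, with wild type in blue, SIN1 KO in orange, a symbol per probe set and a dashed line at the background level of each array. Cdkn2b stands at 2.30 and 2.32 in wild type and at 5.27 and 6.41 in SIN1 KO, on either side of background, while the 3 Ccnd1 probe sets differ between the genotypes by 0.10 to 0.23.

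The promoters of the INK4 genes are shown because these were the members that lay at background in wild type and above it in SIN1 KO. In the RefSeq gene order of assembly GRCm38.p6, Cdkn2a is followed directly by Cdkn2b among protein-coding genes, and Mtap lies on its other side. Cdkn2b encodes p15INK4b from 1 start site. Cdkn2a has 2 start sites: the upstream one gives p19ARF, which stabilises p53, and the downstream one gives p16INK4a. Each window is the 250 bases before a RefSeq start, on the minus strand of chromosome 4, read 5′ to 3′. It is printed in lower case, with capitals for any match to an E2F motif (TTTCGCGC, TTTGGCGC or TTTCCCGC), a cAMP response element (TGACGTCA) or a FoxO motif (GTAAACA), searched on both strands.
Cdkn2b, chr4:89311033-89311282: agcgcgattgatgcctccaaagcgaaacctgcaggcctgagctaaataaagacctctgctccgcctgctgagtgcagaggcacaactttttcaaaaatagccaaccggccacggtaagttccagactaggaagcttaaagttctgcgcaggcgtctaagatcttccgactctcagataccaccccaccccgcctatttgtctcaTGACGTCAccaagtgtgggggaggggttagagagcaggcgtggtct
Cdkn2a upstream start (p19ARF), chr4:89294620-89294869: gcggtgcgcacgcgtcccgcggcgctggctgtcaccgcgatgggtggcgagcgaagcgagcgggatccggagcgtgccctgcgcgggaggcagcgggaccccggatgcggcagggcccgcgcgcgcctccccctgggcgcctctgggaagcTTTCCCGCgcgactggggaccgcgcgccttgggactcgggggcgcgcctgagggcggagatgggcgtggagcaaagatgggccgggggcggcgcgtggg
Cdkn2a downstream start (p16INK4a), chr4:89282193-89282442: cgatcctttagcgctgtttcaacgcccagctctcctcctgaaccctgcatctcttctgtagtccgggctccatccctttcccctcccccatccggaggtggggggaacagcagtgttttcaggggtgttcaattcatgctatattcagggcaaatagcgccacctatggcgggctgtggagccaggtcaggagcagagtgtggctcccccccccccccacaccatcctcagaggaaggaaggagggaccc
The Cdkn2b window held TGACGTCA, 46 bases before the start, which 1.55% of 32851 mouse promoter windows of the same length also hold. The p19ARF window held TTTCCCGC, 99 bases before the start, and 1.53% of all windows hold 1 of the E2F spellings. The p16INK4a window held none of these letters. The windows also differed in CpG content: the p19ARF window had 40 CpG dinucleotides, more than 98.7% of all windows, the Cdkn2b window 12 and the p16INK4a window 7. GTAAACA was in none of the INK4 windows and in 3.17% of all windows. It was found in 1 of the other 6 windows of member genes in the table, at the upstream start of Ccnd3. A match is a description of the letters only. No windows were matched for Ccnd1, Ccnd2 and Ccne2, so these genes were not searched.

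Cdkn2b (probe set 1449152_AT), which holds CDK4 and CDK6 inactive, measured 2.30 on wild type 1, 2.32 on wild type 2, 5.27 on SIN1 KO 1 and 6.41 on SIN1 KO 2. Values of the other members are given in the same order of arrays. Relative to the background of their arrays, the wild type values lay at -1.75 and -1.59 units and the SIN1 KO values at 1.52 and 2.14 units, with no overlap between the genotypes. Each array read the RNA of many cells, so fewer cells with a transcript and less of it per cell cannot be told apart. The group values were 2.31 ± 0.01 for wild type against 5.84 ± 0.81 in SIN1 KO (SD, n = 2). The log2 difference was 3.53 (SE 0.46, 95% interval 2.30 to 4.75, limma unadjusted p = 0.00103, adjusted p = 0.574). This difference, its interval, its p-values and its rank take the wild type values as measured, although both lay below background. The difference was thus larger than the measured spread between arrays. The wild type part of that spread, which enters the SE, was read below background. Of all probe sets, 0.244% had a larger difference in either direction, but that of Cdkn2b did not pass the adjusted threshold. Since wild type was at background, the fold is a bound: the group mean of Cdkn2b was at least 3.63-fold higher in SIN1 KO. The wild type level on each array was taken as the higher of background and the measured value. This bound does not allow for the spread between arrays. Without any 1 of the arrays the difference was between 2.95 and 4.10, and the bound between 2.44-fold and 5.40-fold.

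Cdkn2a (1450140_A_AT) measured 4.01 and 3.28 in wild type against 4.57 and 7.08 in SIN1 KO. The manufacturer's suffix A marks a probe set shared by transcripts of the same gene, so p16INK4a and p19ARF cannot be told apart here. Both SIN1 KO arrays were above both wild type arrays, but the SIN1 KO arrays differed by 2.51 units, a gap that 0.997% of all probe sets exceeded. The group values were 3.65 ± 0.52 for wild type against 5.82 ± 1.77 in SIN1 KO (SD, n = 2). The difference was 2.18 (SE 0.91, 95% interval -0.28 to 4.63, limma adjusted p = 0.82), with a value of 3.43 without SIN1 KO 1 but 0.93 without SIN1 KO 2. Against background, the group mean of Cdkn2a was at least 3.59-fold higher in SIN1 KO. That bound fell to 1.51-fold without SIN1 KO 2 and was 8.56-fold without SIN1 KO 1. It does not allow for the spread between arrays, and the 95% interval of the difference includes 0. With lower background levels no bound could be set for Cdkn2a.

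Cdkn2a and Cdkn2b were the 2 of 17 members at or below background on both wild type arrays and above it on both SIN1 KO arrays, a pattern of 0.935% of all probe sets. No member had the reverse pattern, which 0.622% of all probe sets had. The calls differ in how far they rest on the background level. For Cdkn2a, wild type 1 lay at -0.035 units relative to that level. With the second highest Bacillus control as the level, Cdkn2a was above background on all arrays, while Cdkn2b stayed below it in wild type, as 0.568% of all probe sets did with SIN1 KO above it, and was at least 5.45-fold higher in SIN1 KO. With the median of these controls, between 2.04 and 2.46, both genes were above the level on all arrays, and 0.211% of all probe sets kept the pattern.

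Ccnd3 (1415907_AT), a D-type cyclin that partners CDK4 and CDK6, measured 8.61 and 7.58 in wild type against 8.92 and 9.80 in SIN1 KO. The SIN1 KO arrays did not overlap the wild type arrays, but SIN1 KO 1 was only 0.31 above wild type 1. The difference was 1.26 (SE 0.52, 95% interval -0.13 to 2.65, limma adjusted p = 0.82), a 2.40-fold difference. It was 0.75 without wild type 2 and 0.82 without SIN1 KO 2, against 1.78 without wild type 1 and 1.70 without SIN1 KO 1. The value thus moved by more than 1.5 times when wild type 2 or SIN1 KO 2 was left out.

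Ccne2 (1422535_AT), an activator of CDK2 induced by E2F, measured 4.88 and 6.08 in wild type against 4.65 and 3.33 in SIN1 KO. As measured, both SIN1 KO arrays were below both wild type arrays. Relative to the background of their arrays, wild type lay at 0.83 and 2.17 units and SIN1 KO at 0.91 and -0.95 units. On that scale the genotypes overlapped. The difference was -1.49 (SE 0.65, 95% interval -3.24 to 0.26, limma adjusted p = 0.82). It shrank to -0.83 without SIN1 KO 2 and to -0.89 without wild type 2, while 3.35% of all probe sets had a larger absolute difference. The difference, its interval, its p-value and its rank take SIN1 KO 2 as measured, although it lay below background. Between the number 1 arrays the difference was -0.23 and between the number 2 arrays -2.76, so most of it came from wild type 2 and SIN1 KO 2.

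Cdkn1b, which encodes p27, was measured by probe sets that disagreed in size. Probe set 1419497_AT gave 9.51 and 9.50 in wild type against 8.62 and 9.17 in SIN1 KO. Its difference was -0.61 (SE 0.31, 95% interval -1.43 to 0.21, limma adjusted p = 0.82), between -0.89 without SIN1 KO 2 and -0.34 without SIN1 KO 1. Probe set 1434045_AT gave 8.91 and 8.91 in wild type against 8.85 and 8.85 in SIN1 KO, a difference of -0.061 (95% interval -0.71 to 0.59, limma adjusted p = 0.967). Both had SIN1 KO below wild type without overlap, but the second was lower by under 0.1 units and turned to 0.26 after scaling to the hybridisation controls, which are foreign transcripts spiked in before hybridisation. That scaling raised the median of all probe sets from 0.037 to 0.36, so relative to all probe sets the second probe set stayed below.

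**Figure D2:**
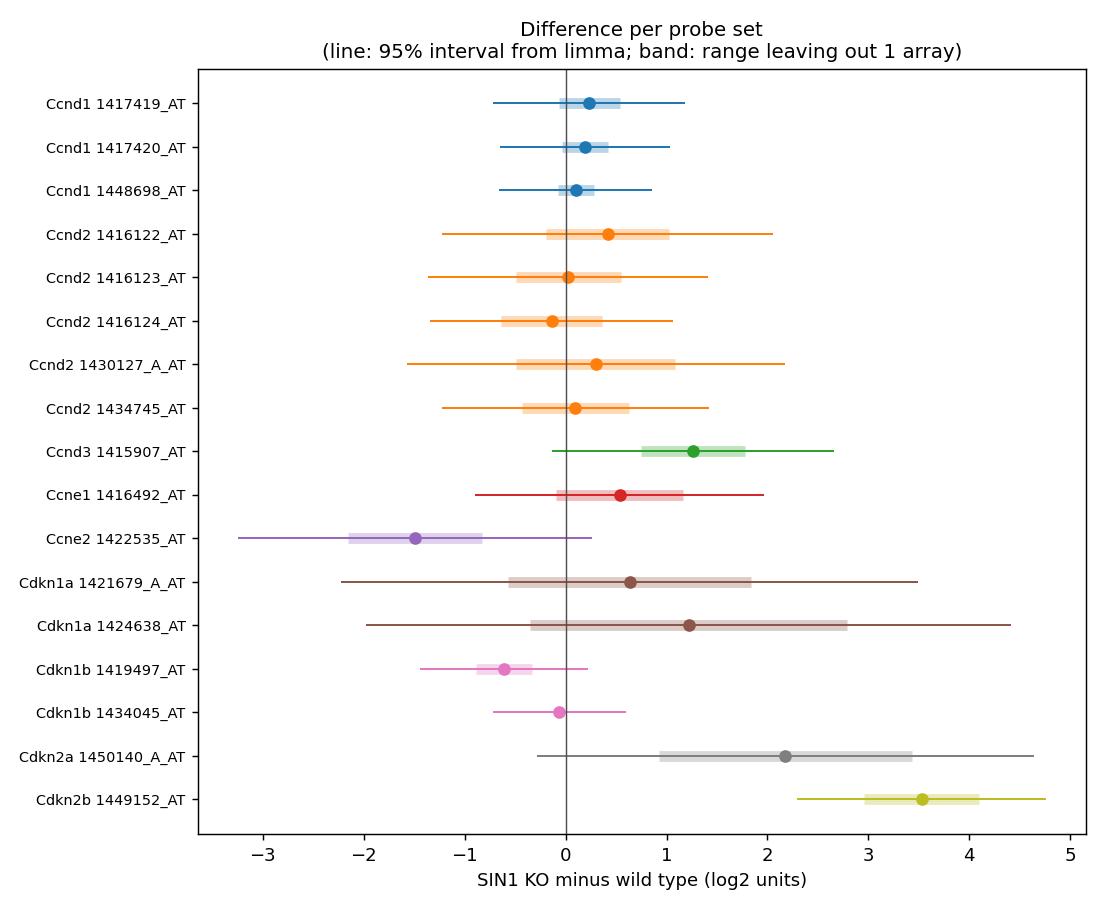
SIN1 KO minus wild type in log2 units (horizontal axis) for each of the 17 probe sets, with limma's 95% interval as a line and the range obtained by leaving out 1 array as a band. Cdkn2b, at 3.53, is the one probe set whose interval lies wholly on 1 side of 0, while the bands of Ccnd1, Ccnd2, Ccne1 and Cdkn1a reach both sides of 0.

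Cdkn1a encodes p21, which is induced by p53 and by growth arrest signals and inhibits CDK2. Its probe set 1424638_AT measured 11.05 and 7.91 in wild type against 9.99 and 11.41 in SIN1 KO. Probe set 1421679_A_AT measured 11.74 and 9.34 in wild type against 10.23 and 12.12 in SIN1 KO. Both ordered the arrays alike: SIN1 KO 2 highest, then wild type 1, SIN1 KO 1 and wild type 2. The gap between the wild type arrays was 3.13 units for 1424638_AT and 2.40 for 1421679_A_AT, and 0.502% and 1.30% of all probe sets had a larger gap.

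For Cdkn1a the difference between genotypes was 1.22 (SE 1.19, 95% interval -1.97 to 4.41, limma adjusted p = 0.839) with 1424638_AT and 0.63 (SE 1.06, limma adjusted p = 0.906) with 1421679_A_AT. Between the number 1 arrays SIN1 KO was lower, by -1.06 and -1.51, and between the number 2 arrays it was higher, by 3.50 and 2.78. Without wild type 2 the differences became -0.35 and -0.57. Without SIN1 KO 2 they were 0.50 and -0.31, so no direction by genotype held.

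Ccnd2, a D-type cyclin, was read by 5 probe sets that agreed on the arrays. Probe set 1430127_A_AT measured 9.94 and 8.83 in wild type against 8.90 and 10.47 in SIN1 KO, and 1416122_AT measured 10.29 and 9.19 in wild type against 9.55 and 10.77 in SIN1 KO. In all 5, wild type 1 and SIN1 KO 2 were above wild type 2 and SIN1 KO 1. The gap between the wild type arrays was from 0.47 to 1.11 units and that between the SIN1 KO arrays from 0.69 to 1.58 units. Over the mean of the probe sets, Ccnd2 was 10.03 ± 0.65 for wild type against 10.17 ± 0.78 in SIN1 KO (SD, n = 2), a difference of 0.14. The probe sets gave differences from -0.14 to 0.42, with limma adjusted p from 0.889 to 0.997 and 95% intervals that lay between -1.56 and 2.16.

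Ccne1 (1416492_AT), the other E-type cyclin, measured 8.73 and 7.48 in wild type against 8.33 and 8.95 in SIN1 KO. It ordered the arrays as Cdkn1a did, and the genotypes overlapped. This order was found in 5 of the 17 probe sets, those of Ccne1 and Cdkn1a with 2 of Ccnd2, against 11.8% of all probe sets. The difference was 0.54 (SE 0.53, 95% interval -0.89 to 1.96, limma adjusted p = 0.842), and without wild type 2 it was -0.091. Between the number 1 arrays it was -0.40 and between the number 2 arrays 1.47, so no direction by genotype held for Ccne1. Ccne2 stayed lower in SIN1 KO without any 1 array. Neither E-type cyclin passed the adjusted threshold.

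Ccnd1 encodes cyclin D1, the D-type cyclin most closely tied to growth factor signals. Its probe set 1448698_AT measured 11.33 and 11.68 in wild type against 11.50 and 11.71 in SIN1 KO. Probe set 1417420_AT measured 10.49 and 10.95 against 10.75 and 11.09, and 1417419_AT measured 9.73 and 10.17 against 9.88 and 10.49. All 3 ordered the arrays alike, with wild type 1 lowest, then SIN1 KO 1, wild type 2 and SIN1 KO 2, an order that 2.31% of all probe sets had. Over the mean of the probe sets the difference was 0.18, against a pooled SD of 0.28 between arrays of a genotype (n = 2 per genotype). The widest 95% interval of the 3, that of 1417419_AT, ran from -0.71 to 1.17, with a limma adjusted p of 0.893, which leaves room for differences of either sign.

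**Figure D3:**
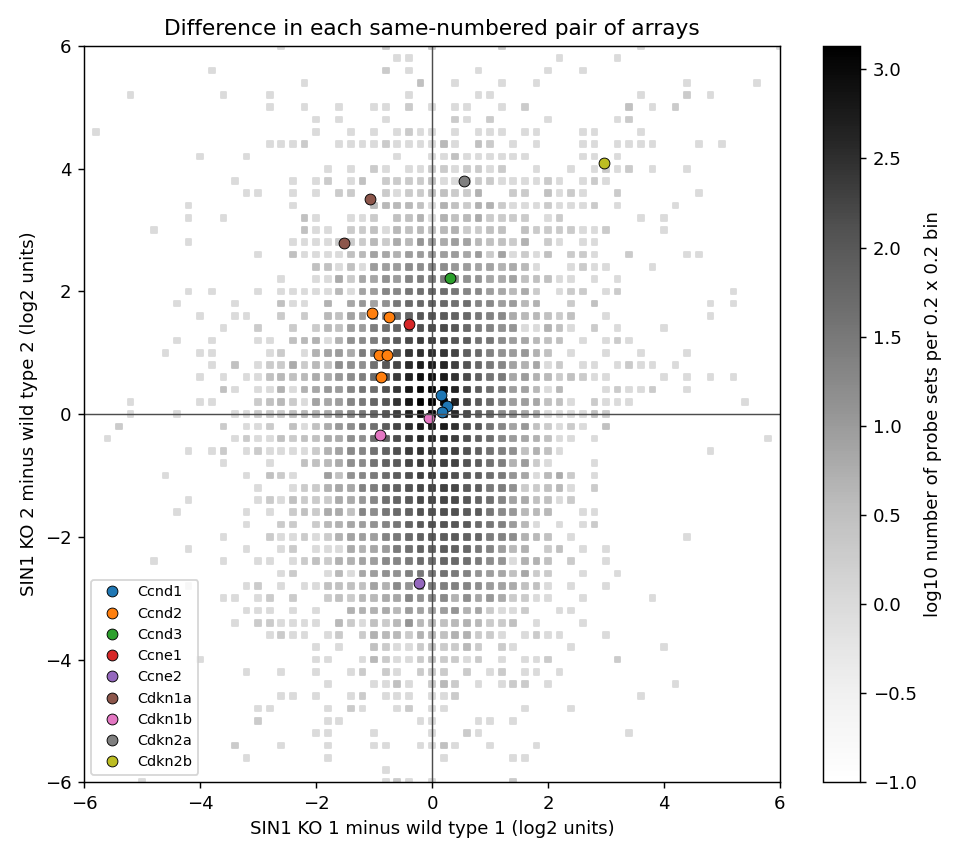
Difference between the number 2 arrays (vertical axis) against that between the number 1 arrays (horizontal axis), both SIN1 KO minus wild type in log2 units, with the members as coloured points and all probe sets as grey bins shaded by the log10 of their number (values beyond 6 units are not drawn). Cdkn2b, at 2.96 and 4.09, is high on both axes, whereas Cdkn1a and Ccnd2 are below 0 on one and above 0 on the other.

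Taken by same-numbered arrays, 6 of the 17 probe sets (those of Ccnd1, Ccnd3, Cdkn2a and Cdkn2b) had the higher value in SIN1 KO in both pairs, against 25.6% of all probe sets. The 3 of Ccne2 and Cdkn1b were lower in both, against 20.0% of all. The other 8, of Ccnd2, Ccne1 and Cdkn1a, had SIN1 KO 1 below wild type 1 but SIN1 KO 2 above wild type 2. These 8 had wild type 1 and SIN1 KO 2 above the other arrays, as 25.1% of all probe sets did, and 5 of them belong to the single gene Ccnd2. The numbers do not mark a stated batch or shared culture.

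**Figure D4:**
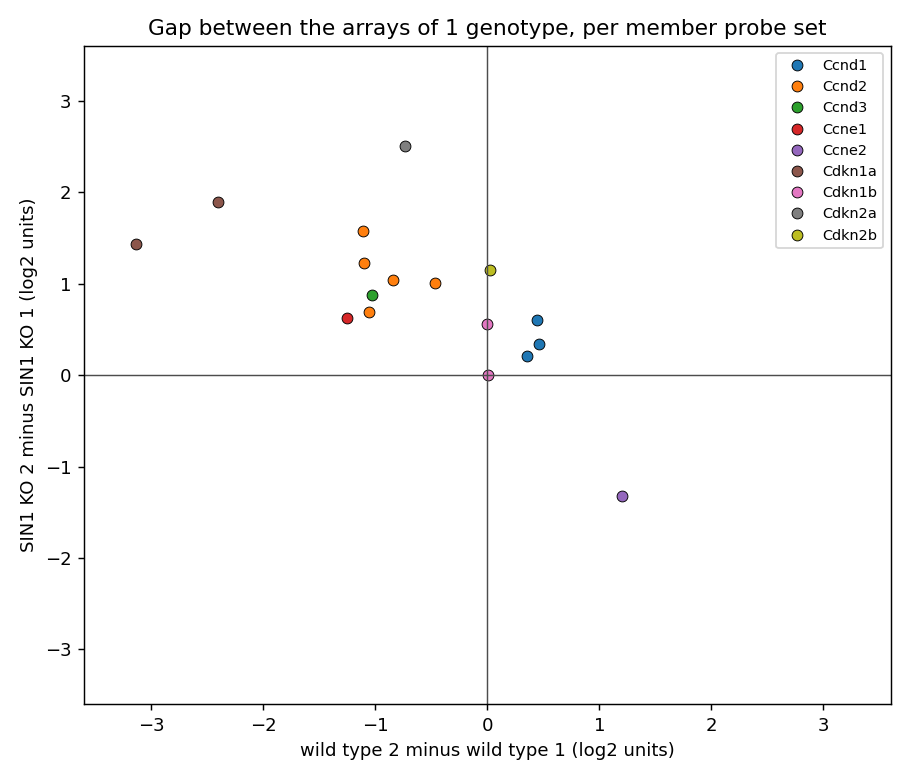
Gap between the SIN1 KO arrays (SIN1 KO 2 minus SIN1 KO 1, vertical axis) against the gap between the wild type arrays (wild type 2 minus wild type 1, horizontal axis), in log2 units, with a point per probe set coloured by gene. Cdkn1a, Ccnd2, Ccnd3, Ccne1 and Cdkn2a lie at upper left, Ccne2 alone lies well into the lower right, and Cdkn1b, Cdkn2b and Ccnd1 lie near or right of the vertical line.

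The gaps between arrays of a genotype were also compared by sign. For 11 of the 17 probe sets wild type 2 was below wild type 1 while SIN1 KO 2 was above SIN1 KO 1, against 37.8% of all probe sets. The 11 include all 5 probe sets of Ccnd2 and both of Cdkn1a, so they do not stand for 11 genes. One of the 11, Cdkn1b 1419497_AT, had a wild type gap of only 0.002. Ccne2 went the other way, at 1.20 between the wild type arrays and -1.33 between the SIN1 KO arrays, as did Cdkn1b 1434045_AT by under 0.01, against 26.2% of all probe sets. Cdkn2b differed from its neighbour Cdkn2a in this respect: its wild type arrays were 0.02 apart, both below background, and its SIN1 KO arrays 1.15 apart.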

How the data were processed

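Total RNA from 2 wild type and 2 SIN1 KO fibroblast samples was labelled with biotin and hybridised to arrays. The deposited table holds log2 values made by the authors with RMA, per the submitters' processing notes. No version or setting of RMA is stated in the sources used here. The log2 scale was taken from the range of the values, 0.80 to 14.17. No column was left unused. Groups and replicate numbers came from the sample titles.

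No table used here pairs probe sets with genes. The members were named through the probe set numbers given with their rule, and other genes of the pathway, cell type markers and Mapkap1, listed for testing, were not analysed here. Members and lists were chosen with earlier results of these data known. All members are named.

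The 64 control probe sets were left out. SIN1 KO was compared with wild type over the other 45037 with limma 3.58.1 in R 4.3.3 (lmFit, eBayes without trend, Benjamini-Hochberg adjustment, threshold 0.05), with 2 residual and 2.38 prior degrees of freedom. The script was tested on simulated data. The prior pools variance over all probe sets, so an SE, interval or p-value from limma does not reflect the spread of its probe set alone. The number of arrays limits precision: the median SE was 0.33. The background level rests on a single Phe control per array and was chosen with the data known. Gene values are means over probe sets. Promoters came from RefSeq (GRCm38.p6), which matched 6 of 9 genes. Alternatives were filtering, scaling, variance priors, blocks, left-out arrays and lower background levels. Plots used matplotlib 3.10.9 and Python 3.11.15.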

Additional observations from a re-analysis of the deposited data

How the results depend on the processing

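The number of member probe sets past the adjusted threshold was 0 under every alternative run, but the filter at the median level tested 16 of the 17 and left out Cdkn2b, the member with the lowest adjusted p. For Cdkn2b the limma adjusted p was 0.574 in the main fit. It was 0.288 with a trended prior, 0.155 with a trended and robust prior, and above 0.574 with the replicate number as a block. Of all probe sets tested, 5 were called higher and 0 lower with the filter at the median level, and 5 and 0 with the trended and robust prior. Of 203 alternative values of the 17 probe sets, 182 kept their direction and 21 reversed. The filter, the variance priors and the blocks cannot change a difference, so the values from these say nothing about direction. Leaving out an array gave 68 of the 203 values and 18 of the 21 reversals. The other 3 were Ccnd2 1416123_AT (-0.048 under cyclic loess), and Ccnd2 1416124_AT (0.18) and Cdkn1b 1434045_AT (0.26) under scaling to the hybridisation controls, which raises every difference alike. Leaving out 1 array gave ranges of -0.067 to 0.54, -0.037 to 0.42 and -0.073 to 0.28 for Ccnd1 (1417419_AT, 1417420_AT, 1448698_AT). For Ccnd2 they were -0.19 to 1.03 (1416122_AT), -0.49 to 0.55 (1416123_AT), -0.64 to 0.36 (1416124_AT), -0.49 to 1.09 (1430127_A_AT) and -0.43 to 0.63 (1434745_AT). They were -0.091 to 1.16 for Ccne1, and -0.57 to 1.83 and -0.35 to 2.78 for Cdkn1a. No array left out reversed Ccnd3, Ccne2, Cdkn1b, Cdkn2a or Cdkn2b. The members at an unadjusted p under 0.05 numbered 1 of 17 (5.57% of all probe sets), but 2 with a trended prior (5.58% of all), 3 with a trended and robust prior (5.78%), 3 with hybridisation scaling (12.8%), and between 1 and 3 when an array was left out (2.48% to 8.6%; 3 and 8.6% without wild type 1). The members at background in wild type alone numbered 2 (0.935% of all), but 1 with the second highest control (0.568%) and 0 with the median control (0.211%) as the level. Scaling to the hybridisation controls, the crossed pairing and the lower background levels were chosen after seeing the data. With the replicate number as a block, 1 of the 17 had an unadjusted p under 0.05 (2.87% of all) and 0 an adjusted one. The deviations of same-numbered arrays from their group means correlated at -0.415 across probe sets, and the crossed pairing as a block gave 4 (14.1% of all) and 0. Fits with 1 array left out assume that the lone array varies like the other genotype's. Of the 45037 probe sets, 43.5% to 49.5% lay at or below background on an array, which limits what can be said of Cdkn2a, Cdkn2b and Ccne2. The pathway lists and gene markers planned were not run, since no table used here names their probe sets.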
